A study of Mus musculus with 4 samples.

Results

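The regions described here are the telomere-proximal last 2 Mb of the 19 mouse autosomes. They are all 5 kb bins of mouse build mm8 that lie within 2 Mb of the largest single-location read position of any library on a chromosome and that hold such a read in any library. The rule gave 7426 bins of the 494868 bins with a read on chromosomes 1 to 19, X and Y, or 1.5%. A further 183 bins in the same span held no read in any library, and 57 of these were on chromosome 17. For comparison, 7478 bins that lie 10 to 12 Mb from the same ends were described in the same way.

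Chromatin immunoprecipitation with sequencing (ChIP-seq) had been done on fibroblasts from mouse embryos (MEF), a connective tissue cell grown in culture, for H3K4me3, H3K27me3 and H3K9me3, and on secondary MEF for H3K9me3 alone. The secondary MEF were grown from chimeric embryos of 13.5 days post coitum, obtained by injecting induced pluripotent stem (iPS) cells into BDF2 blastocysts. The iPS cells carried doxycycline-inducible Oct4, Klf4 and Sox2 and an Oct4-selectable cassette and had been derived in Wnt3a-conditioned medium. Cells descending from them were selected with puromycin at 2 µg/ml for 48 hours and grown with cosmic calf serum, while the MEF were grown with fetal bovine serum (FBS) and have no such history in the labels. Each group had 1 library, so no value below has a replicate check, every comparison is between libraries or between places in a library, and intervals (95%, Clopper-Pearson or Poisson) cover counting error only. The H3K9me3 libraries used the same antibody lot but different flow cells, so the effect of the cells and that of the flow cell cannot be told apart. Input libraries were not analysed here.

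Mouse chromosomes have their centromere at the low-numbered end, so the highest coordinates of an assembled chromosome approach its distal telomere. Telomeres are short tandem repeats bound by the shelterin complex, and heterochromatin with H3K9me3 is known at telomeric repeats and the sequence next to them. The repeats themselves are not part of what is measured here, because reads with more than 2 locations were left out by the alignment. H3K4me3 is found at active and poised promoters, H3K27me3 is deposited by Polycomb repressive complex 2 over silent developmental genes, and H3K9me3 is a mark of heterochromatin.

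The libraries held 12244567 single-location reads for MEF H3K4me3, 9782554 for MEF H3K27me3, 7985901 for secondary MEF H3K9me3 and 8912337 for MEF H3K9me3. This is a mean of 24.7, 19.8, 16.1 and 18.0 reads per bin, in that order of libraries, which is kept below. A level is given as the fold over this mean. The last 2 Mb held 252206, 180490, 131334 and 146893 reads, or 2.06%, 1.85%, 1.65% and 1.65% of the libraries.

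The last 2 Mb carried more H3K4me3 and H3K27me3 than the band 10 to 12 Mb away and less H3K9me3, but the pooled values join very different chromosome ends. The mean H3K4me3 level was 1.37-fold in the last 2 Mb and 0.900-fold in the band, a ratio of 1.53 (1.52 to 1.54). The mean H3K27me3 level was 1.23-fold in the last 2 Mb and 1.03-fold in the band, a ratio of 1.2 (1.19 to 1.21). H3K9me3 in secondary MEF averaged 1.1-fold in the last 2 Mb and 1.22-fold in the band, a ratio of 0.899 (0.892 to 0.906). H3K9me3 in MEF averaged 1.1-fold in the last 2 Mb and 1.17-fold in the band, a ratio of 0.940 (0.934 to 0.947). Over all autosomes the 4 means were 1.04, 1.04, 1.05 and 1.04-fold.

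The higher means for H3K4me3 and H3K27me3 did not extend to the typical bin. The median bin of the last 2 Mb stood at 0.364, 0.759, 0.930 and 0.888-fold, against 0.404, 0.809, 1.05 and 1.06-fold in the band, so it was lower in the last 2 Mb in all 4 libraries. The ratio was above 1 on 10, 10, 9 and 10 of the 19 autosomes. Across chromosomes it ranged from 0.149 to 8.0 for H3K4me3, from 0.188 to 5.97 for H3K27me3, from 0.310 to 2.93 for secondary MEF H3K9me3 and from 0.251 to 3.02 for MEF H3K9me3. This range over chromosomes is far wider than the counting intervals of the pooled ratios. The direction also depended on the band: set against the bins 2 to 4 Mb from the ends, a band chosen after seeing the data, the 4 ratios were 0.925, 0.811, 0.708 and 0.749. For MEF H3K9me3 the median ratio over chromosomes was 1.16, on the other side of 1 from the pooled ratio.

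**Figure D1:**
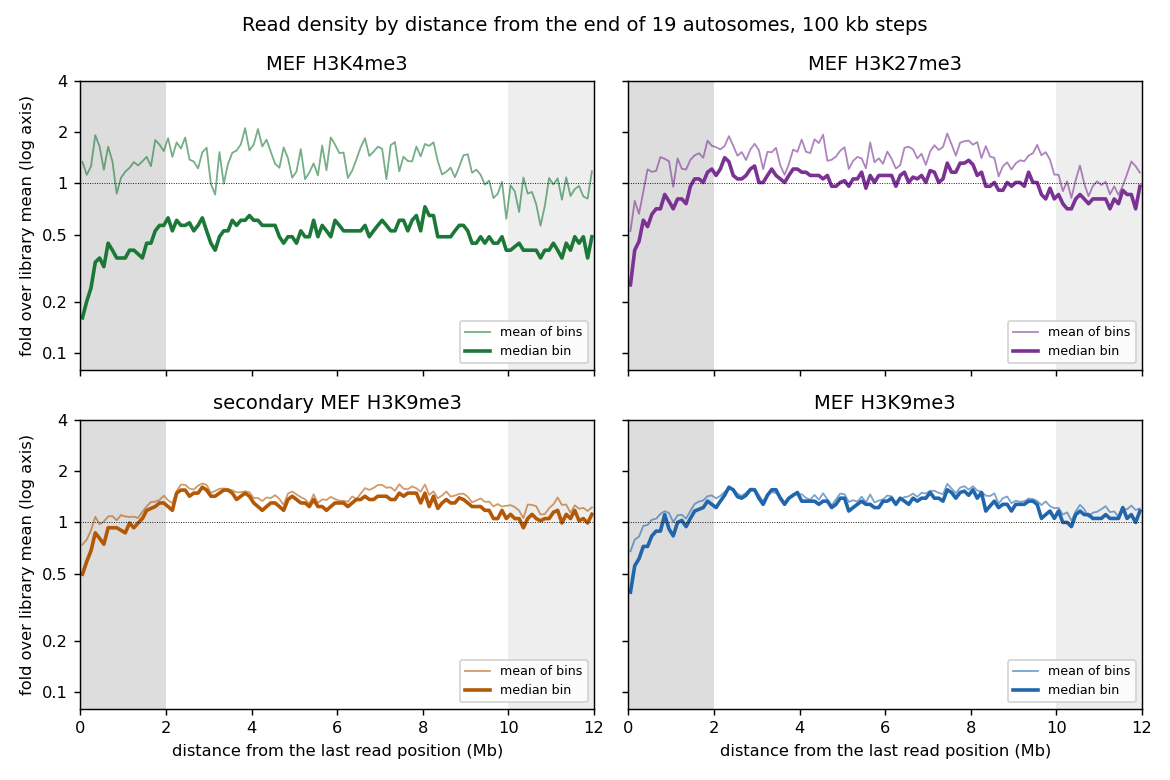
Fold over the library mean (log axis) by distance from the last read position, in 100 kb steps pooled over 19 autosomes, as the mean of the bins (thin) and the median bin (thick). The darker band is the last 2 Mb and the lighter band the bins 10 to 12 Mb away; the median bin is lowest next to the end in all 4 libraries.

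Along the last 2 Mb, all 4 libraries became poorer towards the end. In the outermost 250 kb the median bin was 0.162-fold for H3K4me3, 0.354-fold for H3K27me3, 0.558-fold for secondary MEF H3K9me3 and 0.50-fold for MEF H3K9me3. At 750 to 1000 kb it was 0.364, 0.809, 0.930 and 1.0-fold. At 1750 to 2000 kb it was 0.566, 1.16, 1.3 and 1.33-fold. The median bin of the outermost 500 kb was lower than that of the bins at 1500 to 2000 kb on 15, 17, 16 and 16 of the 19 ends. Chromosomes 7 and 13 were exceptions in all 4 libraries. On chromosome 7, for example, the median H3K27me3 bin was 2.43-fold in the outermost 500 kb and 1.77-fold at 1500 to 2000 kb.

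The mean H3K4me3 level did not follow the same course as its median bin. It was 1.17-fold in the outermost 250 kb, 1.74-fold at 250 to 500 kb, 1.05-fold at 750 to 1000 kb and 1.68-fold at 1750 to 2000 kb. The means of the other libraries were lowest in the outermost 250 kb, at 0.650, 0.793 and 0.743-fold, and highest at 1750 to 2000 kb, at 1.66, 1.38 and 1.43-fold. Further in, at 2 to 4 Mb, the 4 means were 1.49, 1.52, 1.55 and 1.47-fold, above those of both the last 2 Mb and the band at 10 to 12 Mb. The span from 4 to 8 Mb was close to this, with means of 1.38 to 1.57-fold.

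Reads with exactly 2 locations, which do not enter any level, were most frequent next to the end, where the median bin was lowest. They made up 26%, 15.4%, 19% and 17.9% of the placements in the outermost 250 kb, and 2.6%, 3.25%, 5.3% and 4.69% at 1750 to 2000 kb. Of the 9437 H3K4me3 placements in the outermost 250 kb, 6361 lay in 2 bins on chromosomes 19 and 1 that also had the highest H3K4me3 levels of the last 2 Mb. Without these bins, left out after seeing the data, the shares of the outermost 250 kb were 12.4%, 13.2%, 17.1% and 16.2%, and its mean H3K4me3 level was 0.956-fold. Over the whole last 2 Mb the two-location share was 6.08%, 4.40%, 6.60% and 6.03%, against 3.29%, 3.39%, 4.24% and 4.24% in the band. Without the 2 bins it was 3.87%, 4.21%, 6.35% and 5.82%, so that for H3K4me3 it was close to the band. The 250 kb step next to the end had 34 bins without a read, fewer than the 44 at 250 to 500 kb and the 52 at 1750 to 2000 kb. The remaining steps had 5 to 17. The part that repeated sequence has in the lower levels was not tested, and repeated sequence with more than 2 copies does not enter these counts.

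In the outermost 100 kb, H3K4me3 was held by few bins. The 373 bins there had 12324 H3K4me3 reads, and 1 bin held 25.4% of them and the 10 highest held 61.9%. For H3K27me3, secondary MEF H3K9me3 and MEF H3K9me3 the 10 highest bins held 20.1%, 18.1% and 19.5% of 3859, 4455 and 4540 reads. The mean H3K4me3 level of these 100 kb was 1.34-fold, and 0.941-fold without 2 bins that were at least 5-fold in all 4 libraries. The bin that holds the last read position of a chromosome had a median of 0.0808, 0.152, 0.372 and 0.278-fold over the 19 ends. Such a bin is cut short by the end and its level was not scaled to its width, so these values cannot be set against those of full bins.

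**Figure D2:**
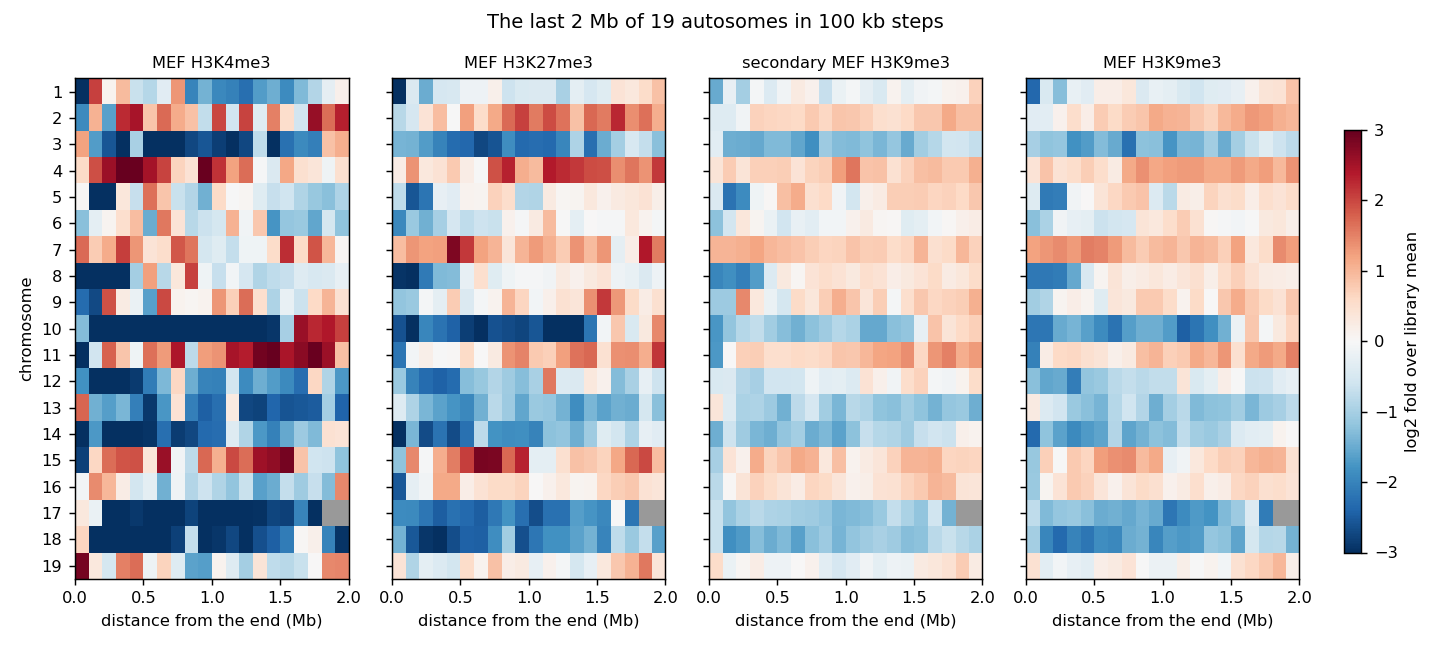
The last 2 Mb of each of 19 autosomes in 100 kb steps, coloured by the log2 fold over the library mean (colours capped at 3 log2 units either way; grey, no bin with a read), with the chromosome end at the left of each panel. Chromosomes 2, 4, 7, 11 and 15 are mostly red in all 4 libraries, and chromosomes 3, 13, 14, 17 and 18 mostly blue.

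The 19 ends differed widely and in a similar order in all 4 libraries. Levels per end ranged from 0.233-fold (chromosome 17) to 3.91-fold (chromosome 11) for H3K4me3 and from 0.276-fold (chromosome 17) to 2.88-fold (chromosome 4) for H3K27me3. They ranged from 0.452-fold (chromosome 18) to 1.80-fold (chromosome 11) for secondary MEF H3K9me3 and from 0.366-fold (chromosome 18) to 2.16-fold (chromosome 7) for MEF H3K9me3. Across the 19 ends, the log2 levels of MEF H3K27me3 and MEF H3K9me3 had a Pearson r of 0.983 and a Spearman rho of 0.975. The values were 0.919 and 0.904 for H3K4me3 with H3K27me3, and 0.977 and 0.975 for the H3K9me3 libraries. In the band the same 3 pairs had a Pearson r of 0.974, 0.906 and 0.947, so the likeness was not confined to the ends. The points of these correlations share the mappable sequence and base composition of each end.

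At 5 ends, those of chromosomes 2, 4, 7, 11 and 15, all 4 libraries were above 1.5-fold. This group and the next were formed after seeing the values and are a description only. They held 26.8% of the bins, and 57.9%, 55.2%, 41.5% and 45.4% of the reads of the last 2 Mb. The chromosome 11 end had 3.91-fold H3K4me3 against 0.489-fold in its band, and 1.93-fold H3K27me3 against 0.735-fold. The chromosome 4 end had 3.43-fold H3K4me3 against 0.607-fold in its band, and 2.88-fold H3K27me3 against 0.482-fold, the highest H3K27me3 ratio. Both H3K9me3 libraries also had their highest ratio on chromosome 4, at 2.93 for secondary MEF and 3.02 for MEF. In the chromosome 4 band 18.6% to 32.7% of placements were two-location reads, against 1.39% to 2.99% at its end, and the part of this in the ratios was not tested. Chromosome 19, which is not among the 5, had the second highest H3K4me3 ratio, 6.79, from 1.58-fold at its end against 0.232-fold in its band. A single bin, chr19:61250001-61255000, held 3127 of the 15587 H3K4me3 reads of this end, on only 245 distinct positions and strands. The ratio and its rank without this bin were not computed. The H3K9me3 ratios of chromosome 19, 1.72 for secondary MEF and 1.92 for MEF, were the third highest after those of chromosomes 4 and 11. For H3K27me3 the highest after chromosome 4 were chromosome 15 at 3.87 and chromosome 11 at 2.63.

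At 5 other ends, those of chromosomes 3, 13, 14, 17 and 18, all 4 libraries were below 0.6-fold. These held 25.5% of the bins but only 7.32%, 7.28%, 11.6% and 10.6% of the reads. The lowest ratios of end to band were on chromosomes 17, 18 and 12 in all 4 libraries. They were 0.149, 0.264 and 0.291 for H3K4me3, and 0.188, 0.245 and 0.317 for H3K27me3. For H3K9me3 they were 0.310, 0.374 and 0.391 in secondary MEF, and 0.251, 0.286 and 0.375 in MEF. Of these 3 ends that of chromosome 12 was not among the poorest for H3K9me3, and its band was rich in all 4 libraries, at 1.42, 2.12, 2.41 and 1.76-fold. At the chromosome 17 end 20.9% to 27.5% of placements were two-location reads. Poor ends were not always poorer than their band: chromosome 14 had 0.390-fold H3K4me3 in the last 2 Mb and 0.166-fold in the band.

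The chromosome 10 end changed within the span. Its median bin was 0.121-fold for H3K4me3 and 0.202-fold for H3K27me3, while its mean H3K4me3 level was 1.14-fold. A bin at 128205001 to 128210000, 1752 kb from the end, reached 54.3-fold for H3K4me3. The outermost H3K27me3 bin called by the rule below lay 1597 kb from the end, and the outermost called H3K4me3 bin 11.6 kb from it.

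**Figure D3:**
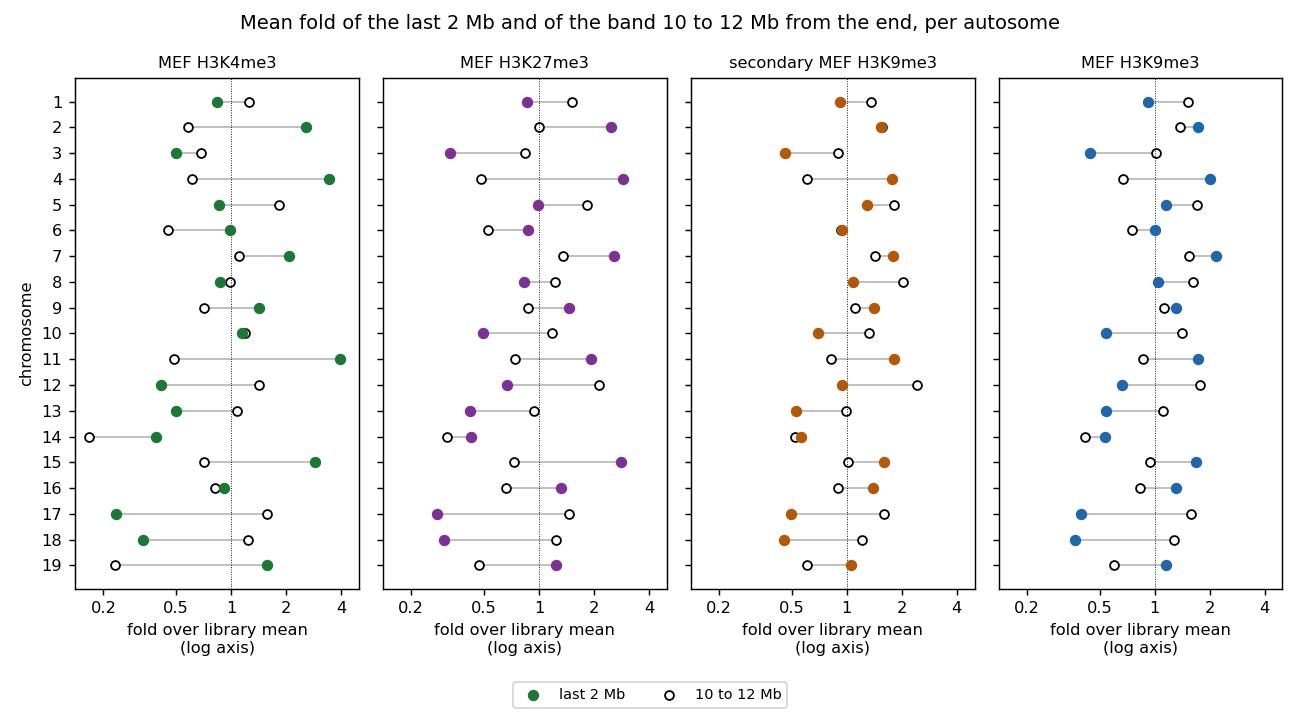
Mean fold over the library mean (log axis) of the last 2 Mb (filled) and of the band 10 to 12 Mb from the end (open) on each autosome, 1 panel per library, with a line joining the 2 values of a chromosome. The filled points of H3K4me3 run from 0.233 to 3.91, and the lines run in both directions in every panel.

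A bin was called when it had at least 2-fold the library's mean and a Benjamini-Hochberg adjusted one-sided Poisson p under 0.001 over all bins. Poisson error does not cover the uneven background of a ChIP library, so calls mark bins that are high and not sites. H3K4me3 was called in 614 of the 7426 bins (8.27%), with a genome-wide share of 6.27% and 410 bins (5.48%) in the band. H3K27me3 was called in 1219 bins (16.4%), with a genome-wide share of 11.3% and 711 bins (9.51%) in the band. Secondary MEF H3K9me3 was called in 831 bins (11.2%), with a genome-wide share of 9.32% and 944 bins (12.6%) in the band. MEF H3K9me3 was called in 1026 bins (13.8%), with a genome-wide share of 10.3% and 843 bins (11.3%) in the band. The bins 2 to 4 Mb from the ends had larger called shares than the last 2 Mb in every library, at 10.4%, 22.5%, 26.5% and 23.8%.

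The calls were concentrated on the 5 rich ends, which held 66.4% of the H3K4me3 calls, 77.5% of the H3K27me3 calls, 67.0% of the secondary MEF H3K9me3 calls and 78.3% of the MEF H3K9me3 calls. On the chromosome 4 end 231 of 396 bins (58.3%) were called for H3K27me3. The 5 poor ends had 30, 11, 11 and 6 called bins among 1890. Coming from the end, the nearest called H3K4me3 bin was a median of 77.1 kb away and lay within 100 kb on 13 of 19 chromosomes. The nearest called bin of H3K27me3, secondary MEF H3K9me3 and MEF H3K9me3 lay at a median of 174, 134 and 233 kb, and within 100 kb on 5, 6 and 5 chromosomes. Of the bins in the outermost 100 kb, 6.97%, 4.02%, 5.09% and 6.43% were called, with genome-wide shares of 6.27%, 11.3%, 9.32% and 10.3%. For H3K4me3 this was near the genome-wide share. On chromosome 18 no H3K9me3 bin was called in the last 2 Mb, and the nearest lay at 4884 kb in secondary MEF and 3889 kb in MEF.

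Bins in which a mark stood out from the other MEF marks were more frequent at the ends than in the band for H3K4me3 and H3K27me3. They were less frequent than in the band for H3K9me3. To count here, a called bin also had to reach 2-fold the average level that the remaining MEF marks had in it. For H3K4me3 there were 390 such bins (5.25%), against 213 (2.85%) in the band and 3.81% over the genome. For H3K27me3 there were 668 (9.0%), against 280 (3.74%) in the band and 5.32% over the genome. For secondary MEF H3K9me3 there were 126 (1.70%), against 398 (5.32%) in the band and 2.47% over the genome. For MEF H3K9me3 there were 96 (1.29%), against 201 (2.69%) in the band and 1.51% over the genome. The interval of the MEF H3K9me3 share, 1.05 to 1.58%, holds the genome-wide share. The H3K9me3 counts also depend on the H3K4me3 and H3K27me3 levels of the bins, which enter the rule. The high band counts of secondary MEF came mostly from chromosome 8 (128 bins) and chromosome 12 (80 bins). Of the H3K9me3 bins of this kind in the last 2 Mb, 19 were shared, or 15.1% of the secondary MEF bins and 19.8% of the MEF bins.

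**Figure D4:**
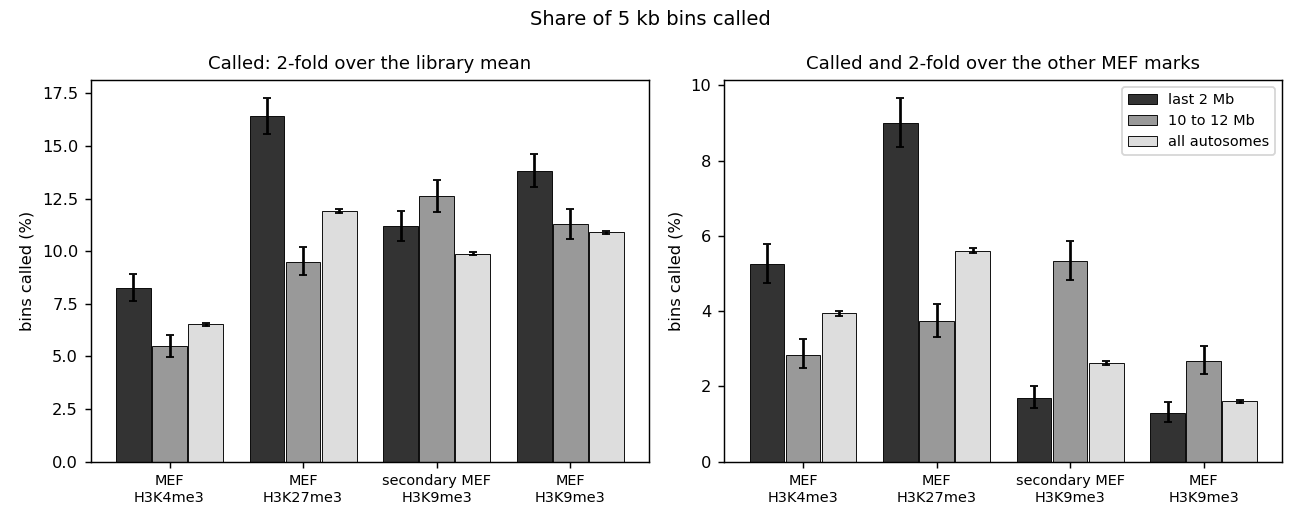
Share of 5 kb bins called, in percent, in the last 2 Mb, in the band 10 to 12 Mb away and on all autosomes, with 95% Clopper-Pearson intervals that cover counting error only. Against the library mean (left) 16.4% of the bins of the last 2 Mb were called for H3K27me3; against the other MEF marks (right) 1.70% were called for secondary MEF H3K9me3 and 1.29% for MEF H3K9me3.

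Most MEF H3K9me3 calls at the ends coincided with H3K27me3 calls. Of the 1026 MEF H3K9me3 bins 762 were also called for H3K27me3, which is 74.3% of the H3K9me3 bins and 62.5% of the H3K27me3 bins. In the band the shared bins were 51.4% of the MEF H3K9me3 bins and 60.9% of the H3K27me3 bins, and on all autosomes 64.6% and 59.0%. Of the 831 secondary MEF H3K9me3 bins 374 (45.0%) were called for MEF H3K4me3, which is 60.9% of the H3K4me3 bins, and 440 (53.0%) were called for MEF H3K27me3. Among secondary MEF H3K9me3 bins these shares were 24.6% and 35.0% in the band, and 37.3% and 43.4% on all autosomes. The H3K9me3 libraries shared 495 called bins, or 59.6% of the secondary MEF and 48.2% of the MEF bins, close to the 54.9% and 49.8% of all autosomes; the band had 48.6% and 54.4%. H3K4me3 and H3K27me3 were called together in 258 bins, or 42% of the H3K4me3 bins and 21.2% of the H3K27me3 bins, against 36.6% and 21.1% in the band and 37.5% and 20.5% on all autosomes. Of 367 bins with at least 5-fold H3K4me3, 51 (13.9%) also had at least 5-fold H3K27me3, against 14 of 158 (8.86%) in the band and 9.76% on all autosomes. These shares rise with the number of called bins. Over the number that independent calls would share, MEF H3K9me3 with H3K27me3 had 4.52 times at the ends, 5.40 in the band and 5.42 on all autosomes. H3K4me3 with H3K27me3 had 2.56, 3.85 and 3.14. Secondary MEF H3K9me3 had 5.44, 4.48 and 5.70 with H3K4me3, and 3.23, 3.68 and 3.64 with H3K27me3. The H3K9me3 libraries had 4.31, 4.31 and 5.04.

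H3K27me3 formed the longest domains of the ends. Joining adjacent called bins gave 364 H3K27me3 regions in the last 2 Mb, of which 23 on 6 chromosomes reached 50 kb or more, against 5 on 3 chromosomes in the band. The other libraries had 2 (H3K4me3), 2 (secondary MEF H3K9me3) and 12 (MEF H3K9me3) regions of that length, against 0, 8 and 6 in the band. The longest H3K27me3 region of the band covered 155 kb. Regions were not counted over the genome or at 2 to 4 Mb from the ends, where 22.5% of bins were called for H3K27me3. Long domains are therefore not shown to be particular to the last 2 Mb. The longest H3K27me3 region covered 185 kb of chromosome 15 (chr15:102720001-102905000), with its outer edge 587 kb from the end. Its mean levels were 3.79-fold H3K4me3, 7.70-fold H3K27me3, 2.26-fold secondary MEF H3K9me3 and 2.81-fold MEF H3K9me3. In the gene order of the later build GRCm38 the 9 coding Hoxc genes, homeobox genes that set identity along the body axis and that Polycomb is known to bind, are the 16th to 24th coding genes from this chromosome's end. An annotation of mm8 was not used here, so bins were not assigned to genes.

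The next longest H3K27me3 regions each covered 180 kb. On chromosome 7 (chr7:144540001-144720000) the means were 1.36-fold H3K4me3, 6.19-fold H3K27me3, 2.01-fold secondary MEF H3K9me3 and 3.05-fold MEF H3K9me3. On chromosome 2 (chr2:180915001-181095000) they were 0.606, 3.96, 1.70 and 2.11-fold. These domains therefore differed in H3K4me3, which was high over the chromosome 15 domain and below the library mean over the chromosome 2 domain. In the GRCm38 order the outermost coding genes of chromosome 7 include Ccnd1, which encodes cyclin D1, and the growth factor genes Fgf15, Fgf4 and Fgf3. Those of chromosome 2 include Sox18, a transcription factor of vessel development, and Myt1, a neural zinc finger factor. Whether any of these genes lies in the 180 kb regions was not determined.

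The longest MEF H3K9me3 regions lay where H3K27me3 was high. The longest covered 120 kb of chromosome 7 (chr7:144590001-144710000), where H3K27me3 averaged 7.30-fold and MEF H3K9me3 3.36-fold. Next was 110 kb of chromosome 15 (chr15:102735001-102845000) with 10.4-fold H3K27me3 and 3.45-fold MEF H3K9me3. The third was 65 kb of chromosome 4 (chr4:153840001-153905000) with 6.33-fold H3K27me3 and 2.75-fold MEF H3K9me3. In secondary MEF the means over these regions were 1.97, 2.79 and 1.91-fold.

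The longest secondary MEF H3K9me3 regions were high in H3K4me3 in 2 of 3 cases. The first covered 85 kb of chromosome 11 (chr11:120030001-120115000) with 6.95-fold H3K4me3, 2.71-fold H3K27me3, 3.01-fold secondary MEF H3K9me3 and 2.49-fold MEF H3K9me3. The second covered 80 kb of chromosome 4 (chr4:153955001-154035000) with 4.45, 1.97, 3.34 and 2.50-fold. It overlapped the longest H3K4me3 region of the ends, 75 kb at chr4:153950001-154025000. The third, 45 kb of chromosome 9 (chr9:122995001-123040000), had 1.15-fold H3K4me3, 1.61-fold H3K27me3, 2.69-fold secondary MEF H3K9me3 and 1.81-fold MEF H3K9me3. In the GRCm38 order the outermost coding genes of chromosome 11 include Fasn, which encodes fatty acid synthase. Those of chromosome 4 include Agrn, which encodes agrin of the neuromuscular junction, and the Wnt signalling gene Dvl1. These genes describe the chromosome ends only, and whether any of them lies in the regions above was not determined.

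Single bins reached the highest levels for H3K4me3. Outside the 4 bins high in every library described below, the highest lay on chromosome 4 (chr4:154735001-154740000), 292 kb from the end, with 1540 H3K4me3 reads or 62.2-fold (59.2 to 65.4), beside 2.18-fold H3K27me3, 3.72-fold secondary MEF H3K9me3 and 2.89-fold MEF H3K9me3. The next 4 lay on chromosomes 10, 11 (2 bins) and 7 at 45.2 to 54.3-fold. The 5 highest H3K27me3 bins, with the same 4 left out, lay on chromosomes 2, 7, 11 (2 bins) and 12 at 18.7 to 20.4-fold. All 5 were also above 3-fold for H3K4me3 (3.44 to 8.29-fold) and for MEF H3K9me3 (3.83 to 6.89-fold).

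Also outside those 4 bins, the highest secondary MEF H3K9me3 bin lay on chromosome 9 (chr9:123775001-123780000), 223 kb from the end. It held 149 secondary MEF H3K9me3 reads (9.23-fold, 7.81 to 10.8) against 34 MEF H3K9me3 reads (1.89-fold), with 1.29-fold H3K4me3 and 1.72-fold H3K27me3. The bins beside it had 80, 113 and 49 secondary MEF reads against 30, 17 and 13 MEF reads, so the excess spanned 20 kb. In the highest bin the secondary MEF reads fell on 144 positions. The bin on the inner side held 474 H3K4me3 reads, 19.2-fold. The highest MEF H3K9me3 bin outside the same 4, on chromosome 11 (chr11:120345001-120350000), had 6.89-fold MEF H3K9me3 and 19-fold H3K27me3, and 4.71-fold secondary MEF H3K9me3.

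At the very end of chromosome 13 the usual decline was absent. The outermost bin (chr13:120610001-120615000) had 4.39-fold MEF H3K9me3 and 2.73-fold secondary MEF H3K9me3, with 1.46-fold H3K4me3 and 1.77-fold H3K27me3. The next bin had 18.2-fold H3K4me3, 6.26-fold secondary MEF H3K9me3 and 5.16-fold MEF H3K9me3. Of the outermost bins of the 19 chromosomes, 2 were called for MEF H3K9me3, those of chromosomes 13 and 7, and 1 for secondary MEF H3K9me3.

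Among the 7426 bins, 4 were at least 5-fold in all 4 libraries, against 1 of 7478 in the band and 82 on all autosomes. On chromosome 19 (chr19:61250001-61255000), 68.7 kb from the end, there were 3127 H3K4me3 reads, 126-fold, with 9.26, 10.7 and 7.94-fold in the other libraries. These H3K4me3 reads fell on only 245 distinct positions and strands. On chromosome 1 (chr1:196940001-196945000), 127 kb from the end, there were 1893 H3K4me3 reads, 76.5-fold, on 230 positions, with 6.37, 8.43 and 6.61-fold in the other libraries. The other two, on chromosome 19 (chr19:61280001-61285000) and chromosome 7 (chr7:143265001-143270000), had 559 and 158 H3K4me3 reads on 496 and 148 positions. Without the 4 bins, and without the 1 such bin of the band, the H3K4me3 ratio of the last 2 Mb to the band was 1.5.

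Between the H3K9me3 libraries, secondary MEF and MEF gave the last 2 Mb an almost equal share of reads. The secondary MEF share over the MEF share was 0.998 (0.990 to 1.01), against 1.04 (1.04 to 1.05) in the band and 1.01 on all autosomes. Chromosome 12 carried more secondary MEF reads along its whole length, at 1.46 times the MEF share. With its reads left out of each area but kept in the library totals, the 3 ratios were 0.984, 1.02 and 0.985. Keeping them in the totals lowers these ratios, so they do not show a lower share in secondary MEF. The ratio was 1.07 (1.04 to 1.1) in the outermost 250 kb, 0.936 (0.917 to 0.956) at 750 to 1000 kb and 0.968 (0.950 to 0.986) at 1750 to 2000 kb.

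The equality of the whole span hid opposite differences at single ends. The ratio was above 1 on 11 of the 19 ends and ranged from 0.826 on chromosome 7 to 1.43 on chromosome 12. After chromosome 12 the highest ratios were 1.28 on chromosome 10, 1.25 on chromosome 17 and 1.24 on chromosome 18, against 0.946, 1.02 and 0.945 in the bands of these chromosomes. These ends were poor in H3K9me3, at 0.697, 0.497 and 0.452-fold in secondary MEF and 0.545, 0.397 and 0.366-fold in MEF. Two-location reads made up 19.83%, 22.25% and 11.38% of their MEF H3K9me3 placements. The part of this in the ratios was not tested. The poor ends of chromosomes 3, 13 and 14 had ratios of 1.04, 0.981 and 1.04. After chromosome 7 the lowest were 0.874 on chromosome 4 and 0.892 on chromosome 2, against 0.901 and 1.13 in their bands. Across the 19 ends the log2 ratio and the log2 MEF H3K27me3 level had a Pearson r of -0.644 and a Spearman rho of -0.590, against -0.0502 and -0.0474 in the band. The ratio and the level share each end's sequence and, in the MEF libraries, a flow cell.

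**Figure D5:**
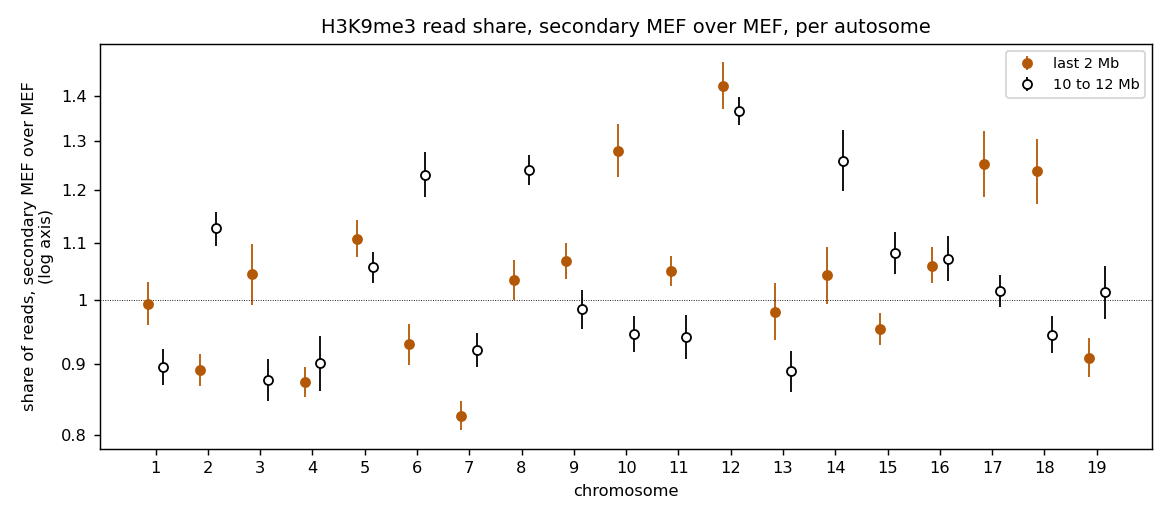
Share of H3K9me3 reads in secondary MEF over that in MEF (log axis) in the last 2 Mb (filled) and in the band 10 to 12 Mb away (open) of each autosome, with 95% Clopper-Pearson intervals that cover counting error only. The values of the last 2 Mb run from 0.826 on chromosome 7 to 1.43 on chromosome 12.

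The ratio differed with the other marks of a bin. In bins of the last 2 Mb called for MEF H3K27me3 and not for H3K4me3, secondary MEF had 0.783 (0.771 to 0.796) of the MEF share, against 0.914 in such bins of the band and 0.794 on all autosomes. In bins called for H3K4me3 and not for H3K27me3 the ratio was 1.35 (1.32 to 1.39), against 1.3 in the band and 1.34 on all autosomes. In bins called for neither it was 1.05 in the last 2 Mb, 1.04 in the band and 1.04 on all autosomes. The ends therefore had values close to those of all autosomes in each class.

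Bin by bin, 5105 bins had a sum of at least 20 H3K9me3 reads over secondary MEF and MEF. A bin differed when the shares were at least 2-fold apart and an interval allowing 0.1% error excluded 1. Secondary MEF was higher in 33 bins (0.646%), with 0.756% over the genome and 50 of 6066 bins (0.824%) in the band. Secondary MEF was lower in 35 bins (0.686%), with 0.576% over the genome and 23 bins (0.379%) in the band. Both shares were close to the genome-wide ones. Of the 35 lower bins 12 were on chromosome 4 and 12 on chromosome 7, and 29 (82.9%) were called for MEF H3K27me3, as were 23.9% of the bins compared. Of the 33 higher bins 7 were on chromosome 12 and 6 on chromosome 9, and 15 (45.5%) were called for MEF H3K4me3, as were 11.9% of those compared. MEF H3K9me3 reads enter the comparison and were on the same flow cell as these marks.

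The highest ratio for a bin with reads in both libraries was on chromosome 9 (chr9:123780001-123785000), with 113 secondary MEF reads against 17 MEF reads, 7.42-fold. Next came bins on chromosomes 12, 10 and 12 at 5.13 to 5.80-fold, with 23 to 26 secondary MEF reads against 5 MEF reads each. A bin on chromosome 17 (chr17:93795001-93800000) had 68 secondary MEF reads against 0 MEF reads. With the MEF library set to a floor of 3 reads this is 25.3-fold, and the interval allowing 0.1% error had a lower limit of 9.44-fold. The 68 reads of this bin fell on only 6 distinct positions, and with 1 read per position the bin would not have been compared. The lowest ratio was on chromosome 6 (chr6:148105001-148110000), with 3 secondary MEF reads against 30 MEF reads, a ratio of 0.112. The other 4 lowest lay on chromosomes 5, 7 (2 bins) and 4 at 0.140 to 0.311, with 3 to 14 secondary MEF reads against 24 to 51 MEF reads.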

How the data were processed

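The authors' deposited files hold genome positions of aligned reads (an unnormalised unit other than a level), negative for reads on the minus strand. Per the file headers, reads were aligned to mm8 with Bowtie (version not given in the sources used here; -e 70, -k 2, -m 2, -n 2, -l 36, --best), and reads with 1 and with 2 locations are listed apart. Per the labels' protocols, chromatin fragments averaged 500 bp, libraries had 18 PCR cycles and 150 to 350 bp were size-selected. Whether repeated reads were removed is not given.

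Single-location reads were shifted by 75 bp into the fragment (36-base reads assumed) and counted in 5 kb bins. Repeated reads were kept. In the last 2 Mb 88.6%, 93.7%, 97.6% and 98.0% were at distinct positions. Ends are the last read position of any library, and the farthest that one library stopped short was 11402 bp. Calls, the pair comparison and intervals are defined where first used. The rules for calls and for the pair comparison were tried on simulated Poisson counts with an even mean, without the uneven background of a ChIP library. The coverage of the intervals was not tested. Bins were named by a rule: the 5 highest per library outside bins 5-fold in all 4, all of the latter, the 3 longest runs per library, the 5 largest pair ratios each way, and the 3 highest and lowest autosomes by ratio. The chromosome 13 end, the 10 and 14 ends, and the bins beside named ones lie outside it and were chosen after their values were seen. Members and lists were chosen with earlier results of these data known. Gene order is from RefSeq on GRCm38.p6, for names only; genes were picked from the outermost 40 per chromosome. Python 3.11.15, numpy 2.4.6, scipy 1.17.1 and matplotlib 3.10.9 were used. Alternatives covered bin width, repeated and two-location reads, the band, the threshold and leaving out chromosomes.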

Additional observations from a re-analysis of the deposited data

Results flagged for a closer look

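Two-location reads, which enter no level above, were piled up at 2 chromosome ends. In the MEF H3K4me3 library the chromosome 19 bin (chr19:61250001-61255000) had 3167 two-location placements and the chromosome 1 bin (chr1:196940001-196945000) had 3194. The last 2 Mb of all 19 autosomes together had 16310. The other libraries had 194, 196 and 178 placements in the chromosome 19 bin and 199, 199 and 184 in the chromosome 1 bin. Of 177 distinct H3K4me3 placements in the chromosome 19 bin and 189 in the chromosome 1 bin, 138 fell at a single constant offset from each other (78.0% and 73.0%), on the same strand. They stand beside the 3127 and 1893 single-location H3K4me3 reads of these bins, and which of the 2 places the two-location reads come from cannot be told apart.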

How the results depend on the processing

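No paired analysis was possible because each group has 1 library. Of 184 alternatives, 74 moved a value by less than its counting interval or, for counts, by less than 1.5 times, 105 moved it further and 5 turned its direction. A turn could be scored only for the ratio of the last 2 Mb to the band. Counts have no direction, and the interval of the H3K9me3 pair ratio holds 1, so its crossings of 1 were not scored as turns. For the ratio of the last 2 Mb to the band, a band at 5 to 7 Mb gave 0.960, 0.862, 0.769 and 0.788, one at 20 to 22 Mb gave 1.09, 1.02, 0.873 and 0.902, and one at 2 to 4 Mb, added after seeing the data, gave 0.925, 0.811, 0.708 and 0.749. The median over chromosomes was 1.11, 1.36, 0.995 and 1.16. Leaving out 1 chromosome gave 1.33 (without 11) to 1.66 (without 17), 1.08 (without 4) to 1.31 (without 12), 0.846 (without 4) to 0.959 (without 12) and 0.877 (without 4) to 0.990 (without 12). For H3K4me3, 1 read per position gave 1.45, adding two-location reads 1.54 and leaving out the bins high in all libraries 1.5. Without the outermost 100 kb, the other 3 libraries gave 1.23, 0.915 and 0.960. The H3K9me3 pair ratio ran from 0.984 (without 12) to 1.02 (without 7), with the library totals unchanged. Its chromosome median was 1.04. When totals leave out chromosomes 12, X and Y, the ratio was 1.01, with the chromosome 12 end still counted. At 3-fold and an adjusted p under 1e-06, 8.54% (H3K27me3), 2.56% (secondary MEF H3K9me3) and 2.77% (MEF H3K9me3) of bins were called, and against the other MEF marks 5.25%, 9.0%, 1.70% and 1.29%. With 40 reads in place of 20, 1.09% of bins were lower in secondary MEF. At 16.1 to 24.7 reads per bin, small differences in single bins were not detectable at this depth. For these values the cause was not tested.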
